A study of Nothobranchius furzeri with 6 samples.

Results

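The miRNA families mir-724, mir-458 and mir-430, known mainly from fish, were followed in adult brain of Nothobranchius furzeri, the turquoise killifish, whose short life makes it a model of vertebrate ageing. They were chosen by name, as the rows nfu-mir-724, nfu-mir-458 and nfu-mir-430 of the deposited count table: 3 of 324 rows, of which 235 bear a family name and 89 are predicted features. The choice was made with earlier results of these data known. The 6 small RNA libraries all came from brains of male fish of the strain MZM-04/10p aged 39 weeks, so there is 1 group and no contrast of age, sex, strain or treatment. The labels do not say that each library came from a separate animal, and p-values therefore measure the spread between these 6 samples, which may be technical. All 3 rows passed the filter of a mean of at least 10 counts, as did 214 rows in all.

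A miRNA is a short RNA that guides Argonaute proteins to messenger RNAs carrying a match to its seed, near its 5′ end, and lowers their translation and stability. In zebrafish, miR-430 is made in very many copies when the embryo's own genome switches on, and it clears messenger RNAs left by the mother; zebrafish embryos without mature miRNAs have brain malformations that added miR-430 largely corrects. The seed of miR-430 is related to that of the mammalian pluripotency family miR-302 and of miR-17. The family miR-458 is catalogued in fish and also in chicken, and miR-724 in fish. The functions of these last families are not stated here.

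Each of the 3 names has a single row with no arm given, so the values below are for rows with a family name and not for single mature miRNAs. Total counts per library ranged from 11924483 to 16597229. Levels are given in CPM, the count relative to the library total after TMM scaling, an edgeR correction for library composition whose factors ran from 0.958 to 1.05. The neuronal markers mir-124, mir-128, mir-132, mir-138, mir-153 and mir-9 were present in each library and held 13.5% to 18.2% of counts. Lists for other cell types were much smaller, from 0.000998% ± 0.0000740 for the liver marker mir-122 to 1.87% ± 0.174 for the oligodendrocyte families (SD, n = 6).

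The level of each family in adult brain came first. The families differed by orders of magnitude: mir-724 was among the most abundant miRNA families of these brains, mir-458 was moderately abundant and mir-430 was scarce. A read spans a whole small RNA, so levels were not divided by length. Together they held 1.97% ± 0.271 of all counts (SD, n = 6), of which mir-724 made up 92.2% ± 0.458, mir-458 7.74% ± 0.435 and mir-430 0.0466% ± 0.0363.

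The mir-724 row held 231708, 290036, 330261, 236840, 177193 and 202020 counts in libraries 1 to 6. These correspond to 18828, 19691, 19000, 20215, 14461 and 16502 CPM. Libraries 1 to 4 lay close together, library 6 was lower and library 5 was lowest. The mean was 18116 ± 2197 CPM (SD, n = 6), which placed mir-724 at rank 12 of 324 rows, and at rank 11 to 14 within single libraries.

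The mir-458 row held 17872, 24201, 28244, 18764, 16085 and 17705 counts, or 1452, 1643, 1625, 1602, 1313 and 1446 CPM, in libraries 1 to 6. Libraries 2, 3 and 4 were highest, and library 5 was again lowest. The mean was 1513 ± 131 CPM (SD, n = 6), at rank 40 of all rows and at rank 38 to 42 within single libraries.

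The mir-430 row held 19, 16, 141, 175, 189 and 135 counts in libraries 1 to 6, 675 in all. As levels these are 1.54, 1.09, 8.11, 14.9, 15.4 and 11.0 CPM. Libraries 1 and 2 stood well below the other 4, which lay within 1.90-fold of each other. The mean of 8.69 ± 6.31 CPM (SD, n = 6) put mir-430 at rank 144 of all rows, but its rank moved from 125 in library 4 to 199 in library 2. Even the lowest library was above the detection floor of 3 counts, which corresponds to 0.173 to 0.256 CPM across libraries.

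**Figure D1:**
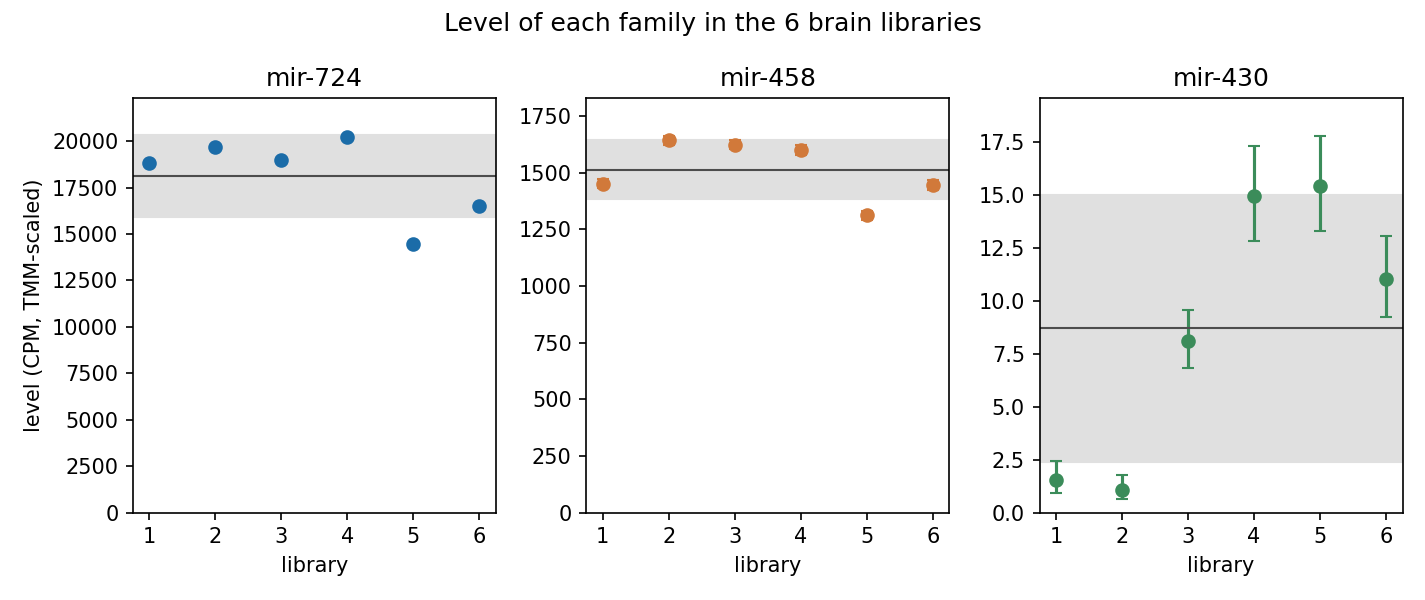
Level of mir-724, mir-458 and mir-430 in CPM (TMM-scaled) in each of the 6 brain libraries. Points are single libraries with exact 95% binomial intervals (counting error only), the line is the mean and the grey band is 1 SD; each panel has its own scale starting at 0. For mir-430, libraries 1 and 2 lie at 1.54 and 1.09 CPM, below the 8.11 to 15.4 CPM of the others.

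Within each library the order was the same, mir-724 over mir-458 over mir-430, in 6 of 6 libraries. The log2 ratio of mir-724 to mir-458 was 3.58 ± 0.09 (mean ± SD, n = 6), an 11.9-fold difference that ranged only from 11.0-fold to 13.0-fold between libraries. The log2 ratio of mir-458 to mir-430 was 8.01 ± 1.71, or 258-fold, and ranged from 84.7-fold in library 5 to 1424-fold in library 2. For mir-724 over mir-430 it was 11.59 ± 1.76. A two-sided exact permutation test that flips the signs of the 6 within-library ratios gave its smallest possible p, 0.031, for each pair. Levels so far apart make all 6 signs alike, so this p adds nothing to the order itself. The kit ligates adaptors to RNA ends with an efficiency that depends on sequence, so ratios between families mix abundance with that bias. Whether the bias differed between libraries was not tested.

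Most immediate neighbours in the order of levels could not be separated from these families. Above mir-724 stood mir-27 at 23879 ± 3476 CPM and mir-132, an activity-regulated neuronal family, at 19494 ± 2960 CPM. Below it stood mir-338, an oligodendrocyte family, at 17550 ± 1917 CPM and mir-92 at 17034 ± 2224 CPM. The family mir-27 exceeded mir-724 in each library (log2 ratio of mir-724 to mir-27 -0.40 ± 0.25), while mir-132 and mir-338 each lay above mir-724 in 3 of 6 libraries and mir-92 in 1.

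The neighbours of mir-458 were mir-228 at 1739 ± 176 CPM and mir-337 at 1729 ± 272 CPM above it, and mir-139 at 1398 ± 332 CPM and mir-216 at 1348 ± 166 CPM below it. Here only the order against mir-228 held in every library, with a log2 ratio of mir-458 to mir-228 of -0.20 ± 0.11. For mir-430 the neighbours were mir-370 (9.24 ± 2.31 CPM), pred_95 (8.87 ± 2.83 CPM), mir-194 (7.95 ± 3.42 CPM) and mir-315 (7.70 ± 1.84 CPM), and the order against each of them turned between libraries. Of the 12 neighbour ratios, those to mir-27 and mir-228 had an unadjusted p of 0.031 in that exact permutation test, again the smallest it can give. None passed after Benjamini-Hochberg adjustment (lowest adjusted p = 0.188). With 6 libraries these ratios could not have passed over 12 pairs unless most of the others were as low in p. The neighbours were also picked by mean level in these same libraries, so the p-values only describe the order.

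How much each family varied between libraries of this single group was examined next. The families mir-724 and mir-458 were steady: their coefficients of variation were 12.1% and 8.64%, and their highest library exceeded the lowest 1.40-fold and 1.25-fold. The mir-430 row had a coefficient of variation of 72.6% and a 14.2-fold range. Counting noise alone would give 0.202% for mir-724, 0.699% for mir-458 and 9.43% for mir-430, so each row varied more than its read numbers would make it vary.

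On the scale log2(CPM + 1), the SD over the 6 libraries was 0.18 for mir-724, 0.13 for mir-458 and 1.33 for mir-430, against a median of 0.27 over the 214 tested rows. Only 23 of the tested rows had a lower SD than mir-458, and 61 had a lower SD than mir-724. The SD of mir-430 ranked 5 from the top. Among the 20 rows nearest to mir-430 in mean level, the SD ran from 0.08 to 0.70, so none reached it. Of the 20 rows nearest to mir-724, 9 varied more, and of the 20 nearest to mir-458, 15 varied more.

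Each row was tested for variation beyond that of rows of like abundance, with edgeR's goodness-of-fit test of an intercept-only negative binomial model at the trended dispersion. Of the 3 families, only mir-430 passed, with an adjusted p of 4.6e-04, against 3.74% of all tested rows (8 of 214). For mir-724 and mir-458 the adjusted p was 0.9999 for each. Their biological coefficients of variation (edgeR's tagwise values, shrunk towards the trend) of 0.204 and 0.212 lay below the trend at their abundance, 0.302 and 0.342. This was not particular to them, since the median tagwise value over the tested rows, 0.274, also lay below the median trend, 0.371. The mir-430 row stood at 0.791 against a trend of 0.386. By the Poisson index of dispersion, which asks only whether a row varies beyond counting noise, all 3 passed, as did 82.7% of the tested rows. The mir-430 call was lost without library 2 (adjusted p = 0.134 by the same edgeR test) and remained without any other single library, where the adjusted p lay between 1.0e-04 and 0.0270. The mir-430 row was not among the 3 dispersion outliers of DESeq2, although its DESeq2 dispersion was 8.59 times the fitted value.

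**Figure D2:**
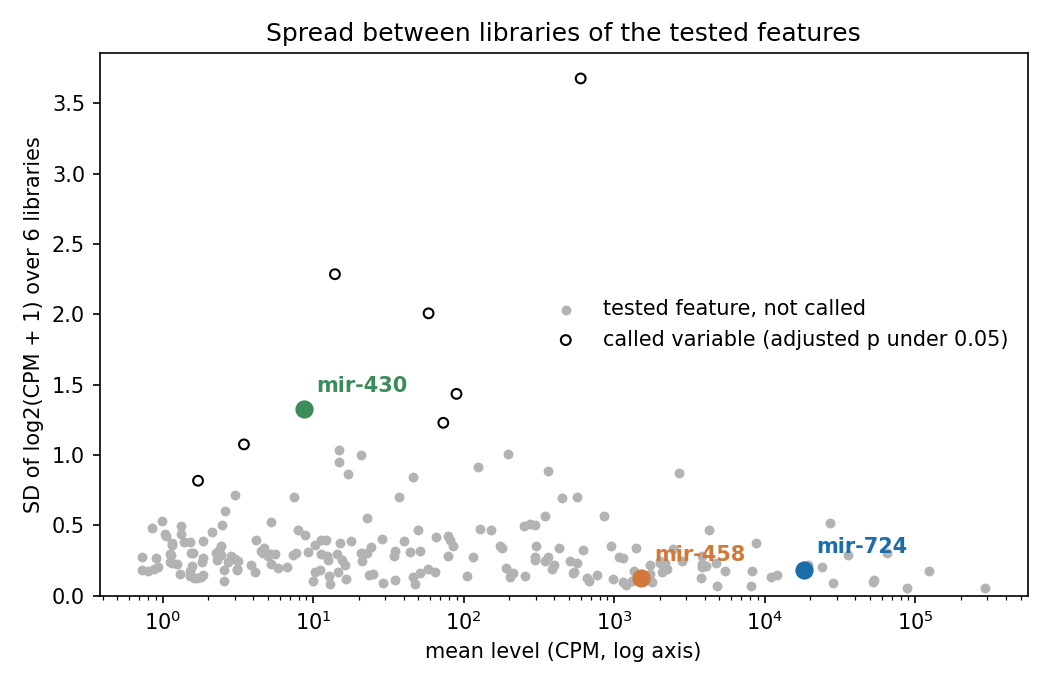
SD of log2(CPM + 1) over the 6 libraries against mean level in CPM (log axis) for the 214 tested rows. Grey points are rows not called, open circles are rows called variable at an adjusted p under 0.05, and coloured points are the 3 families: mir-430, also called, lies at 1.33, and mir-458 and mir-724 lie at 0.13 and 0.18 among the steadier rows.

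For mir-430 the gap between libraries exceeded the counting error computed from the read numbers. Exact binomial limits at 95% were 0.930 and 2.41 CPM for library 1, and 0.621 and 1.76 CPM for library 2. For library 3, the lowest of the other 4, they were 6.83 and 9.57 CPM, so library 3 stood 5.25-fold above library 1. Such limits hold the counting error alone. They can be too narrow even for that, because PCR copies were not marked with molecular identifiers. Libraries 1 and 2 held 11970136 and 14531614 counts in all, and the others 11924483 to 16597229. The same pair of libraries was lowest in 21 of the 213 other tested rows (9.86%), and highest in 17. None of the 21 was called variable by the main edgeR test. How often other pairs of libraries were lowest or highest was not counted, so these counts cannot be read as many or few. For the list of families related to mir-430, only mir-17, a growth-promoting family of a related seed, had a row of its own name, and the other 14 were not analysed here. The mir-17 row stood at 977 ± 80.9 CPM with a log2 SD of 0.12, and was not called by the edgeR test (adjusted p = 0.9999). The count of mir-430 relative to that of mir-17 was 0.176% and 0.108% in libraries 1 and 2, and 0.865%, 1.51%, 1.38% and 1.17% in libraries 3 to 6.

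Markers of other tissues were read beside this pattern. The gonad marker mir-202 was at 15.0, 15.4, 10.4, 10.2, 7.18 and 14.7 CPM in libraries 1 to 6. It was thus highest in the pair where mir-430 was low, with library 6 close to that pair. The gut, liver and kidney families mir-192 and mir-194 held 0.0290% and 0.0114% of counts in libraries 1 and 2. They held 0.00216% to 0.00845% in the others, so this list was highest in the pair where mir-430 was low. The mir-192 row was itself called variable by the edgeR test (adjusted p = 4.6e-04), and mir-194 was not. The liver marker mir-122 did not share this pattern. It had 9.10 and 9.78 CPM in libraries 1 and 2 and 9.39 to 11.3 CPM elsewhere. Endocrine mir-7 was lowest in the same pair of libraries, with 244 and 350 CPM there and 549 to 921 CPM elsewhere. The other endocrine marker, mir-375, was at 7.56 CPM in library 1 and highest, at 1574 CPM, in library 2. It was also called by the edgeR test (adjusted p = 9.6e-28), whereas mir-7 was not. The shares of the red blood cell list were 0.0643% and 0.0584% in libraries 1 and 2 and 0.0186% to 0.0536% in the others. Within it mir-144 was highest in that pair, with 164 and 192 CPM there and 32.2 to 143 CPM elsewhere. The mir-451 row had 462 and 385 CPM there and 159 to 417 CPM elsewhere. The muscle list held 0.131% in each of libraries 1 and 2 and 0.0763% to 0.124% in the others. The list of white blood cells and microglia held 0.0465% and 0.0458% in libraries 1 and 2 and 0.0366% to 0.0549% in the others, and that of epithelium and skin held 0.0185% and 0.0324%, against 0.00830% to 0.0567%. Within the white blood cell list the profiles were unlike. The mir-142 row was highest in libraries 1 and 2, with 218 and 225 CPM there and 117 to 174 CPM elsewhere. So was mir-223, with 44.0 and 35.2 CPM there and 21.5 to 25.7 CPM elsewhere. By contrast, mir-146 had 186 and 187 CPM there and 187 to 419 CPM elsewhere. For mir-155 the values were 4.47 and 4.55 CPM there and 2.61 to 5.97 CPM elsewhere. Neuronal families held 14.6% and 14.9%, within the 13.5% to 18.2% of the others, and oligodendrocyte families held 2.06% and 1.97%, against 1.66% to 2.01%. The part of blood, muscle, gut, liver, gonad or endocrine tissue in the mir-430 pattern was not tested. In such bulk samples fewer cells of a type and less RNA per cell cannot be told apart.

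Whether the families moved together between libraries was then examined. The pair mir-724 and mir-458 had the highest Pearson's r that either family showed with any of 213 other tested rows, but no correlation passed after adjustment. Over the 6 libraries Pearson's r of log2(CPM + 1) was 0.90 (exact permutation p = 0.0125, adjusted over the 213 rows p = 0.749) and Spearman's rho was 0.83 (exact p = 0.0583, adjusted p = 0.888). With 720 pairings, a lone correlation cannot pass over 213 rows, whatever its size. Not passing therefore does not show that a relation is absent. Both mir-724 and mir-458 were lowest in library 5. Without libraries 5 and 6, the pair farthest from the median of mir-724, r was 0.55. Without the pair farthest from the median of mir-458, it was 0.70. Library 5 was the lowest library in 19.2% of all tested rows and the highest in 23.8%.

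No correlation of mir-430 with either family passed. With mir-724, its r was -0.47 and its rho -0.37, with exact permutation p-values of 0.356 and 0.497 (0.808 and 0.946 once adjusted). With mir-458, r was -0.34 and rho -0.71, with exact permutation p-values of 0.451 and 0.136 (0.879 and 0.912 once adjusted). Both r turned positive, to 0.43 and 0.50, when the pair of libraries farthest from the median of mir-724 or of mir-458 was left out. No relation of mir-430 to the others can therefore be read from these libraries.

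Next to mir-458, the rows nearest to mir-724 in profile were mir-454, a family of the miR-130 group (r = 0.86, rho = 0.94), and mir-471 (r = 0.84, rho = 0.83). Without libraries 5 and 6, r with mir-724 was 0.81 for mir-454 and 0.22 for mir-471. The mir-454 row was at 500, 507, 516, 661, 383 and 494 CPM in libraries 1 to 6, and thus also lowest in library 5. The most opposed row was mir-460, at 362, 341, 366, 348, 485 and 404 CPM, which was highest in library 5 (r = -0.98, rho = -0.89). After mir-724, the rows nearest to mir-458 were mir-995 (r = 0.90, rho = 0.60) and pred_319 (r = 0.86, rho = 0.54). The row of mir-995, a family named in insects, had 6 to 8 counts in libraries 1, 5 and 6, against 354 to 451 elsewhere. It was itself called variable by the edgeR test (adjusted p = 8.4e-15). Its exact permutation p for r was 0.0972, unadjusted. The row most opposed to mir-458 was mir-408, a plant family name, at only 0.230 to 1.47 CPM (r = -0.93, rho = -0.89).

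For mir-430, the nearest profiles were mir-1265 (r = 0.98, rho = 0.94), mir-22, a broadly expressed family (r = 0.97, rho = 0.89), and mir-197 (r = 0.93, rho = 0.77). The mir-197 row held only 8 to 22 counts per library. Without libraries 1 and 2, r with mir-430 was 0.74 for mir-1265, 0.72 for mir-22 and 0.45 for mir-197. The mir-1265 row measured 17.2 CPM in library 1, 16.9 CPM in library 2 and 23.9 to 27.5 CPM elsewhere, a far smaller step than that of mir-430. The abundant mir-22 row measured 26145 CPM and 26215 CPM there, and 28662 to 30328 CPM elsewhere. The most opposed row was mir-223, a marker of myeloid white blood cells, with 44.0 CPM in library 1, 35.2 CPM in library 2 and 21.5 to 25.7 CPM elsewhere (r = -0.93, rho = -0.77). These rows were picked as the extremes of 213 per family. By the exact permutation test, 12 rows for mir-724, 8 for mir-458 and 16 for mir-430 had an unadjusted p under 0.05 for r. About 1 in 20 of the 213 rows would fall there by chance for each family. None had an adjusted p under 0.05 for r or rho, which a lone row could not reach with 720 pairings.

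**Figure D3:**
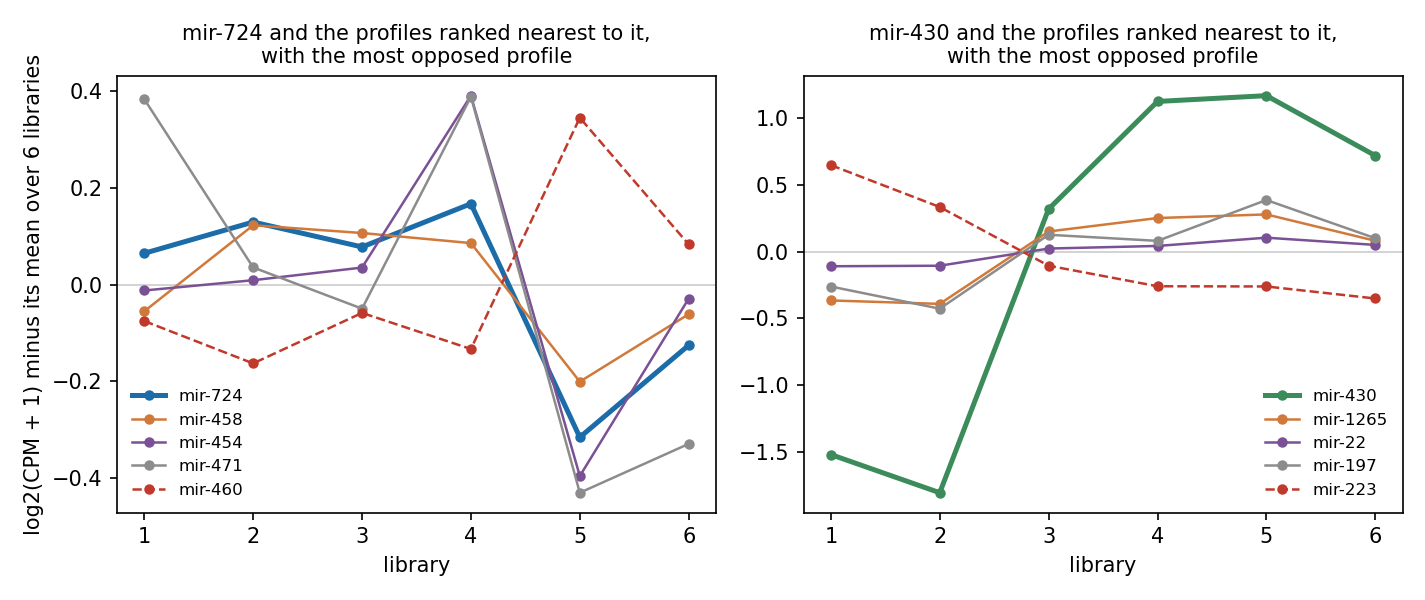
Profiles over the 6 libraries, as log2(CPM + 1) minus the mean of each row, for mir-724 (left) and mir-430 (right), each with the 3 rows of highest Pearson r and, dashed, the row of lowest r. Lines only link the points of a row, since libraries have no order; library 5 is low for mir-724, mir-458 and mir-454, and libraries 1 and 2 are low for mir-430 by far more than for its nearest rows.

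The 3 families were last set beside other families catalogued in fish, some of which, such as mir-454 and mir-455, also occur in mammals. Of 32 such families listed, 13 had a row of their own name and 10 passed the filter on low counts; the 19 without one were not analysed here. These 13 rows together held 0.203% ± 0.00981 of all counts (SD, n = 6), so mir-724 alone made up 83.5% ± 1.16 of the summed 16 rows. The highest were mir-455 at 659 ± 58.7 CPM, mir-454 at 510 ± 88.8 CPM and mir-460 at 384 ± 54.0 CPM, each below the mir-458 mean of 1513 CPM. Next came mir-723 (178 ± 40.0 CPM), mir-727 (105 ± 9.87 CPM) and mir-722 (84.2 ± 19.6 CPM), which in zebrafish limits the migration of neutrophils. The families mir-1388 at 51.2 ± 11.1 CPM, mir-456 at 46.2 ± 4.38 CPM, mir-728 at 11.2 ± 3.20 CPM and mir-2184 at 2.38 ± 0.705 CPM were lower. The mir-728 and mir-2184 means lay on either side of that of mir-430. The mir-459 row held 2 counts in library 1 and 0 elsewhere, and mir-2187 and mir-2189 had no reads in any library, a result that leaves room for as much as 0.256 CPM where the floor was highest.

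The mir-430 row also stood apart in its spread among these rows. The log2 SD of the 10 tested rows ran from 0.12 for mir-455 to 0.40 for mir-728, with a median of 0.28, against 1.33 for mir-430 and 0.27 for all tested rows. Of the 10, 7 varied more than mir-724 and 9 more than mir-458. None of the 10 was called by edgeR's goodness-of-fit test, none had an unadjusted p under 0.05 in it (8.41% of all tested rows had), none was a DESeq2 dispersion outlier, and all 10 passed the Poisson index. Library 5 was lowest for 4 of them (mir-454, mir-722, mir-728 and mir-1388) and highest for 3 (mir-460, mir-727 and mir-2184). Of all tested rows, 19.2% were lowest and 23.8% highest there. The summed share of the other fish families was lowest in library 5, at 0.189%, against 0.195% to 0.214% elsewhere. These are shares of raw counts, without the TMM scaling used for CPM. By the same measure mir-724 held 1.41% in library 5 and 1.58% in library 6, the next lowest. The mir-458 row held 0.128% and 0.139% there. The step of the sum between these libraries was smaller in proportion, and the sum was not compared in CPM. The low values of mir-724 and mir-458 in library 5 were thus not shared by every row.

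**Figure D4:**
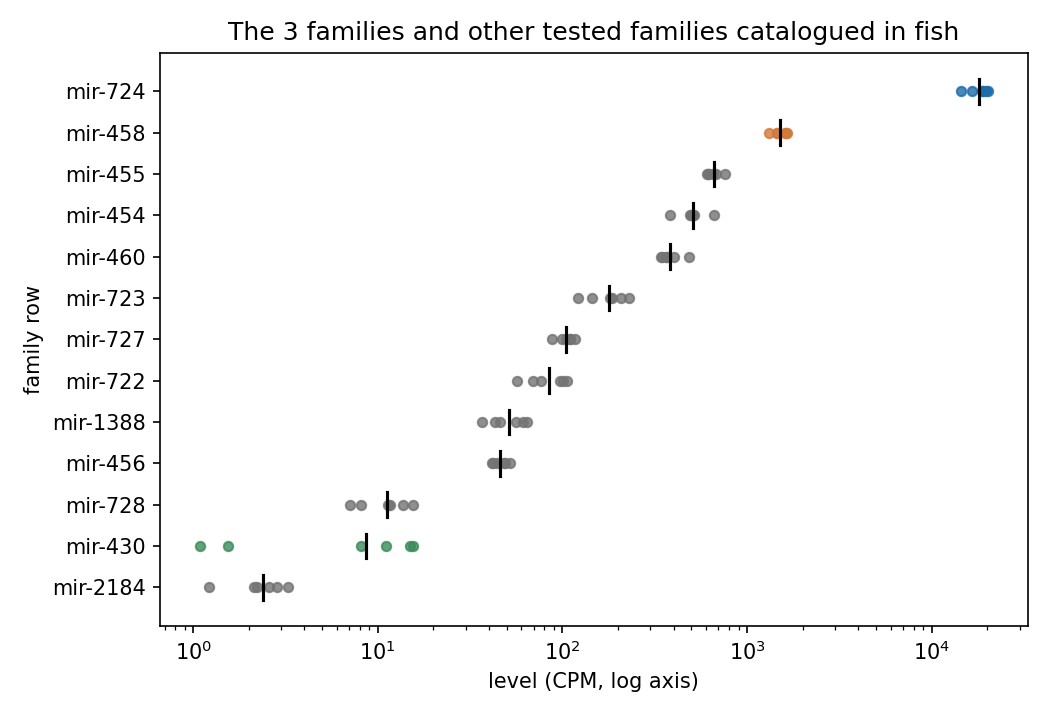
Level in CPM (log axis) of mir-724, mir-458 and mir-430 (coloured) and of the 10 other tested families catalogued in fish (grey), ordered by mean. Points are the 6 libraries and the bar is their mean; mir-724 lies at 18116 CPM and mir-458 at 1513 CPM, above the other families, and the mir-430 points split into 2 libraries below 2 CPM and 4 above 8 CPM.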

How the data were processed

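Small RNA was sequenced from brain in 6 libraries made with the TruSeq small RNA kit, per the labels' protocols. The authors deposited raw counts, whole numbers per miRNA family or predicted feature. Per the submitters' processing notes, tools included BWA 0.7.12-r1039, SAMtools 1.3.1-9, Trimmomatic 0.36 and bcl2fastq 1.8.4. Not given in the sources used here are their roles, the genome build, the annotation and the handling of multiply mapping reads. Near-identical families could therefore share reads. Sequences and coordinates were not used here.

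The members and lists were chosen with earlier results of these data known. Library numbers follow accession order and only name the libraries. No 2 libraries agreed within counting noise (chi-square per degree of freedom at least 387).

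Counts were scaled with TMM (edgeR 4.0.16, R 4.3.3). Variation was tested over the 214 rows with a mean of at least 10 counts by edgeR's goodness-of-fit test, Benjamini-Hochberg threshold 0.05. Ratios used counts plus 1 and a two-sided exact permutation test by sign flips, and correlations all 720 pairings. Correlation p-values were adjusted over all tested rows, not over the 3 pairs as first planned. DESeq2 1.42.0 served as an alternative. The tests were tested on simulated data. Named rows were the 3 families, the 2 rows next above and below each in mean level, the 3 rows of highest and the 1 of lowest r with each, and the rows of the fixed lists.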

Additional observations from a re-analysis of the deposited data

Results flagged for a closer look

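Dixon's test for a single extreme value among 6 was applied to 41 quantities: levels, ratios, list shares and the library totals. It marked 3, where about 1 in 20, or 2.05, would be marked by chance. None of the 3 was a level of mir-724, mir-458 or mir-430 or a ratio between them. For mir-430 this says little, because libraries 1 and 2 were low together and the test looks for a single extreme value. The mir-92 row, next but one below mir-724 in mean level, reached 21417 CPM in library 5, where mir-724 was lowest, and lay between 15130 and 16897 CPM elsewhere. The mir-194 row, next below mir-430, reached 14.6 CPM in library 1 and lay between 5.64 and 8.49 CPM elsewhere. The summed share of the gut, liver and kidney list, which holds mir-194, was 0.0290% in library 1 and 0.00216% to 0.0114% elsewhere.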

How the results depend on the processing

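With mir-181, the most abundant family, left out of the total, mir-724 stood at 25684 CPM and mir-458 at 2144 CPM, since the total shrank. Other scalings moved no mean of the 3 families by 1 SD. By the Poisson index, the adjusted p was at most 1e-300 for mir-724 and 5.2e-159 for mir-458. The number of rows called was 22 with the trend fitted without the called rows, 177 by the Poisson index and 3 as DESeq2 outliers, against 8. With 1 library left out, it was 6 to 9, the mean was 17697 to 18847 CPM for mir-724, 1488 to 1554 CPM for mir-458 and 7.34 to 10.2 CPM for mir-430, and the adjusted p was 0.9993 to 0.9999 for mir-724 and mir-458 and 1.0e-04 to 0.134 for mir-430 (edgeR). For mir-430 the adjusted p of edgeR's goodness-of-fit test was 1.2e-05 to 4.8e-04 with other filters, a common dispersion or DESeq2 scaling. It was 9.4e-08 with the trend fitted without the called rows. That fit left out mir-430 itself, so a lower p was built in. Leaving out 1 library gave log2 ratios of 3.55 to 3.60 for mir-724 over mir-458 and 11.10 to 11.93 for mir-724 over mir-430. For mir-458 over mir-430 it gave 7.52 to 8.34. However, 5 libraries cannot give p under 0.0625 in the exact permutation test. For the same 3 pairs in that order, again with 1 library left out, r was 0.74 to 0.98, -0.80 to -0.23 and -0.56 to -0.01. No r changed sign with 1 library left out or under another scaling or pseudocount. None passed after adjustment, which a lone correlation cannot do with so few pairings. With the 2 libraries farthest from the median left out, both r of mir-430 turned positive (0.43 and 0.50). The 16 and 19 counts of mir-430 in libraries 2 and 1 limit the precision of its ratios. No paired analysis was possible because all libraries belong to 1 group.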
